A study of Mus musculus with 42 samples.

Results

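The Reg family lectins are small secreted proteins built around a C-type lectin fold. The transcripts Reg1, Reg3a, Reg3b, Reg3g and Reg4 were chosen by symbol, each has 1 probe set on the array (17459769, 17459752, 17459744, 17467973 and 17400853), and they are 5 of the 22180 genes measured with a probe set of 1 symbol. In the intestine the Reg3 lectins bind bacteria and help to keep them apart from the mucosa, and Reg3b and Reg3g are known to be induced in epithelial cells by microbial signals and by interleukin 22 through Stat3. Reg1 is best known from the regenerating pancreas and the injured stomach, and Reg4 marks deep crypt secretory cells of the colon and other secretory cells of the intestine. Extl3 is the proposed receptor for several Reg proteins.

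The values are log2 intensities from Affymetrix mouse gene arrays of adult, healthy, untreated mice at least 7-8 weeks old and not selected by sex, and the study asked which genes mark pyloric stem cells among populations of the gut. The Lgr5-EGFP-IRES-CreERT2 line, called IRES here, reports the stem cell receptor gene Lgr5 with EGFP and gave 25 arrays: bright (Lgr5Hi) and dim (Lgr5Lo) cells of the pylorus (4 each), small intestine (2 each) and colon (3 each), whole pylorus (2), whole small intestine (1), small intestinal crypt (2) and whole colon (2). The Lgr5-EGFP-DTR line, called DTR here, carries EGFP and a diphtheria toxin receptor at Lgr5 and gave 9 pyloric arrays, 3 each of Lgr5Hi, Lgr5Lo and Lgr5Neg cells. Wildtype (WT) mice gave 8 pyloric arrays, 4 each of cells bright (Aqp5Pos) and dark (Aqp5Neg) for an antibody to the water channel Aqp5. The labels name neither the background strain nor any pooling of animals, and both reporters are knock-in alleles of Lgr5. On these 9 DTR arrays title and model field disagree, the latter giving the IRES line, and grouping went by title.

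Some arrays stood apart from their labels or their group. The sort markers followed the gates: Lgr5 averaged 8.73 in DTR Lgr5Hi, 6.59 in Lgr5Lo and 4.60 in Lgr5Neg cells, and Aqp5 averaged 8.82 in Aqp5Pos and 7.18 in Aqp5Neg cells. The whole colon array numbered 1 carried gastric markers, with a surface pit mucous list mean of 12.87 against 4.33 on the other whole colon array, and it enters the spread of every IRES comparison. The 2 arrays labelled small intestinal crypt went against their label: compared with Lgr5Hi cells the brush border genes Sis (11.68 against 6.72) and Alpi (11.96 against 7.30) were higher, and the Paneth gene Mmp7 (7.76 against 11.00) and the stem cell gene Lgr5 (4.93 against 8.34) were lower. Lgr5Hi cells were sorted for Lgr5, which favours this direction for Lgr5. Against the whole small intestine (7.09, 1 array) Lgr5 was lower as well. In the IRES pylorus the 2 arrays numbered 4 carried a Paneth marker mean of 7.00 (Lgr5Hi) and 7.38 (Lgr5Lo), against 4.34 to 5.54 on the other 6 gate arrays. A gastric signal was present in all pyloric groups, with a surface pit mucous list mean of at least 8.02 on every array. Which region of the stomach the cells came from was not tested. Gene-level array medians lay between 4.24 and 4.52. The deposited table holds no detection calls, so a level at or under these medians is close to background and a difference from it is a lower bound.

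In the RefSeq annotation Reg3b, Reg3d, Reg3a, Reg2, Reg1 and Reg3g lie in this order as consecutive coding genes on mouse chromosome 6. Reg4 lies apart on chromosome 3. The 250 bases upstream of the annotated transcript start are shown for Reg3b and Reg3g, whose levels moved together across the arrays, and for Reg3a, a Reg3 gene of the same cluster that lay below the array medians on every pyloric array (RefSeq, GRCm38.p6). Capitals mark matches on either strand to the motifs searched. The TATA box was searched as TATAAA and the Stat element as TTCNNNGAA. For the E-box the letters were CACCTG, and the Gata element was taken as GATAAG.
Reg3b, chr6:78370635-78370884, plus strand: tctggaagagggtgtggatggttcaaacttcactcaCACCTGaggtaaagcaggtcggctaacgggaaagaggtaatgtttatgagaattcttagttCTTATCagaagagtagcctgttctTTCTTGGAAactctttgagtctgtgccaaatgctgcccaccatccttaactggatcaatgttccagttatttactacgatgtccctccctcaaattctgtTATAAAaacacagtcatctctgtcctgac
Reg3g, chr6:78468875-78469124, minus strand: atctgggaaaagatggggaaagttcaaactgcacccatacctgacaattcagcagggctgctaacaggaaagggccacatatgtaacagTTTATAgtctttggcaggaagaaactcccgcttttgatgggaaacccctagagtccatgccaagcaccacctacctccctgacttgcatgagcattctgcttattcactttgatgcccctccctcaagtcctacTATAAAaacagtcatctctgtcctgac
Reg3a, chr6:78380459-78380708, plus strand: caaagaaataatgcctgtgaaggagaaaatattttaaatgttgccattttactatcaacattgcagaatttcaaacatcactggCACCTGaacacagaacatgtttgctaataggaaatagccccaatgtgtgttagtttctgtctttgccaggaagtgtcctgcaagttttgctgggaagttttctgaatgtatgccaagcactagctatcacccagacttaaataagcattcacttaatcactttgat

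Reg3b and Reg3g had the most similar upstream stretches of the 7 Reg genes, with 175 identical positions among 254 aligned columns (68.9%). The next pair was Reg1 and Reg2 at 59.3%, and the other pairs lay between 48.8% and 55%. The last 20 bases before the start were identical in Reg3b and Reg3g. A TATA box began at -29 in Reg3b, at -27 in Reg3g and at -30 in Reg1 and Reg2, and Reg3g had another match at -161 on the opposite strand. The Stat element was found in Reg3b at -129 and in Reg3d at -238, and its letters are not in the window of Reg3g. Among 32851 upstream stretches of the same length in the table, 12.4% hold the TATA box, 7.02% the Stat element, 17.2% the E-box and 6.55% the Gata element. No 2 of these motifs overlapped in the 7 stretches.

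**Figure D1:**
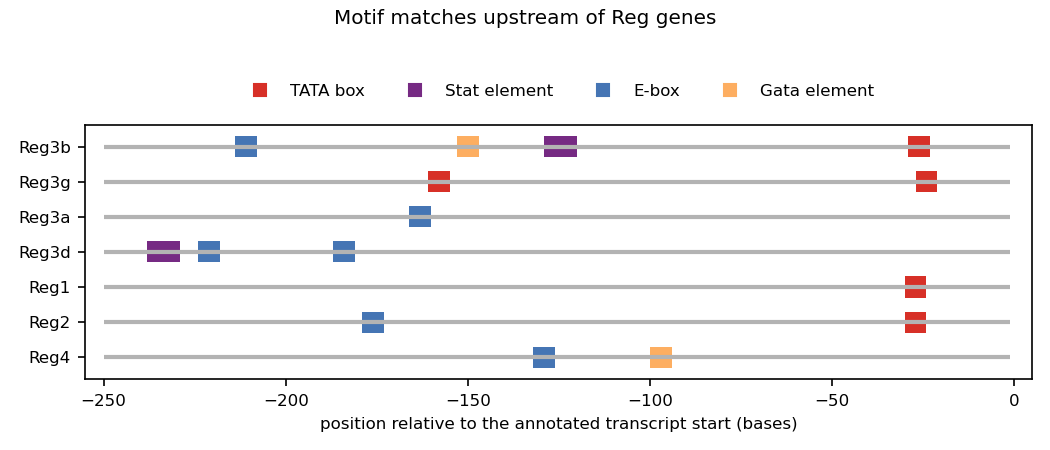
Positions of motif matches in the 250 bases before the annotated start of 7 Reg genes (x axis, bases from the start; 1 line per gene; coloured blocks, motifs on either strand). A TATA box lies close to the start in Reg3b, Reg3g, Reg1 and Reg2, and only Reg3b and Reg3d hold a Stat element.

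Across the 15 groups the members fell into different patterns. Reg1, Reg3a, Reg3b and Reg3g were highest on the arrays labelled small intestinal crypt, at group means of 12.29, 9.77, 12.45 and 11.35. Reg4 was highest in colon Lgr5Lo cells at 11.66. Each member spanned at least 8.04 log2 units between its highest and lowest group mean. The order of groups was loose: for Reg3g 13 of 14 neighbouring groups in the order had arrays that overlapped, for Reg1 and Reg3b 12 of 14, and for Reg3a and Reg4 10 of 14. Reg2, a near relative of Reg1, stayed between 2.28 and 4.10 on every array while Reg1 reached 12.33, and Reg3d stayed between 1.90 and 4.51.

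**Figure D2:**
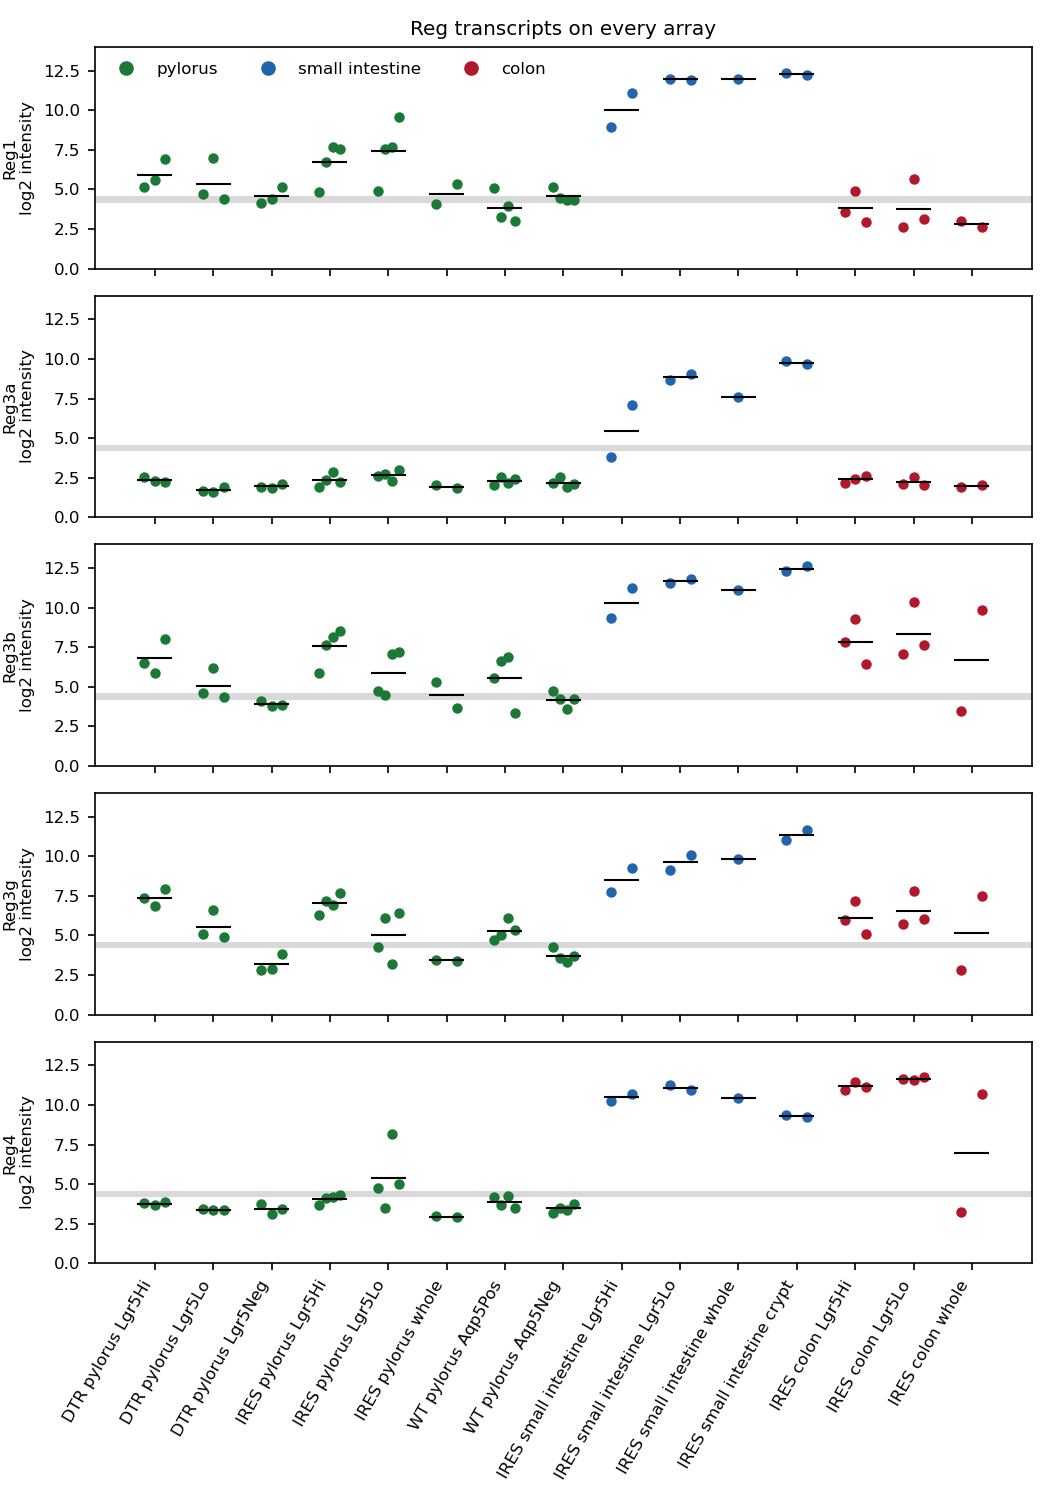
Log2 intensity (y axis) of each Reg transcript on all 42 arrays in the 15 groups (x axis). Points are arrays, black lines are group means, and the grey band is the range of the gene-level array medians, 4.24 to 4.52; all small intestinal values of Reg1, Reg3b, Reg3g and Reg4 lie above the band.

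In the DTR pylorus Reg3g was the member whose arrays separated all 3 Lgr5 gates. Reg3g encodes a secreted lectin that binds Gram-positive bacteria. In the DTR line it measured 7.39, 6.89 and 7.91 in Lgr5Hi cells, 5.08, 6.63 and 4.92 in Lgr5Lo cells, and 2.84, 2.86 and 3.86 in Lgr5Neg cells. The 3 gates did not overlap: every bright array lay above every dim array, and every dim array above every negative one. Reg3g stood at or above 89.2% of genes in Lgr5Hi cells and 25.1% in Lgr5Neg cells. It was higher in Lgr5Hi than in Lgr5Neg cells by 4.21 ± 0.41 (SE; 18.5-fold; limma adjusted p = 1.92e-05), a lower bound because the Lgr5Neg arrays lie under the array medians. It was higher in Lgr5Hi than in Lgr5Lo cells by 1.85 ± 0.41 (3.61-fold; adjusted p = 0.0218), and in Lgr5Lo than in Lgr5Neg cells by 2.36 ± 0.41 (5.12-fold; adjusted p = 0.0097). In sorted bulk samples, more cells that express a gene and more RNA per cell cannot be told apart.

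Reg3b, whose product is the close relative of the Reg3g lectin and acts on Gram-negative bacteria, had the same order of group means with more scatter. It measured 6.49, 5.86 and 8.03 in DTR Lgr5Hi cells, 4.58, 6.16 and 4.33 in Lgr5Lo cells and 4.09, 3.78 and 3.82 in Lgr5Neg cells. The bright and negative gates did not overlap, while the bright and dim gates did. Reg3b was higher in Lgr5Hi than in Lgr5Neg cells by 2.90 ± 0.50 (7.45-fold; limma adjusted p = 0.00121). Lgr5Hi exceeded Lgr5Lo by 1.77 ± 0.50 (adjusted p = 0.065) and Lgr5Lo exceeded Lgr5Neg by 1.12 ± 0.50 (adjusted p = 0.353), neither of which passed the threshold.

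Reg1 was not called between the DTR gates, and Reg3a and Reg4 stayed below the array medians. Reg1 measured 5.13, 5.62 and 6.93 in Lgr5Hi, 4.70, 7.00 and 4.37 in Lgr5Lo and 4.15, 4.40 and 5.17 in Lgr5Neg cells, with overlap between all gates, and its difference of 1.32 between Lgr5Hi and Lgr5Neg did not pass (adjusted p = 0.158). Reg4 lay between 3.09 and 3.87 on all 9 arrays. Reg3a lay between 1.60 and 2.53, and its difference of 0.63 ± 0.14 between Lgr5Hi and Lgr5Lo passed the test (adjusted p = 0.0238) at levels below every array median. Reg3d was higher by 0.64 (adjusted p = 0.0427) in the same comparison, at means of 2.81 and 2.18 that are likewise below every array median. Extl3, the proposed receptor gene, averaged 6.23 in Lgr5Hi and 5.42 in Lgr5Neg cells, a difference of 0.80 ± 0.22 (adjusted p = 0.0234).

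Of the 5 members, 2 were called between DTR Lgr5Hi and Lgr5Neg cells, where 18.3% of all genes were called. Between Lgr5Hi and Lgr5Lo cells 2 were called, where 4.97% of genes were. Between Lgr5Lo and Lgr5Neg cells 1 was called, where 2.2% of genes were. The call of Reg3g between Lgr5Hi and Lgr5Lo was lost without Lgr5Hi replicate 1 (adjusted p = 0.0587), Lgr5Hi replicate 3 (0.0761), Lgr5Lo replicate 1 (0.0724) or Lgr5Lo replicate 3 (0.11), at differences of 1.54 to 1.86. The Reg3a call in that comparison was lost without Lgr5Hi replicate 1 (0.0709), Lgr5Lo replicate 1 (0.0666) or Lgr5Lo replicate 2 (0.109), while Reg3b gained a call without Lgr5Hi replicate 2 (0.0244) or Lgr5Lo replicate 2 (0.0226). Between Lgr5Lo and Lgr5Neg the Reg3g adjusted p was 0.0507 without Lgr5Neg replicate 1, at 2.18. In 1 fit over all 42 arrays the Reg3b call between Lgr5Hi and Lgr5Neg (0.105) and both other Reg3g calls (0.53 and 0.545) were lost, and trend and robust moderation lost Reg3g between Lgr5Hi and Lgr5Lo (0.069).

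**Figure D3:**
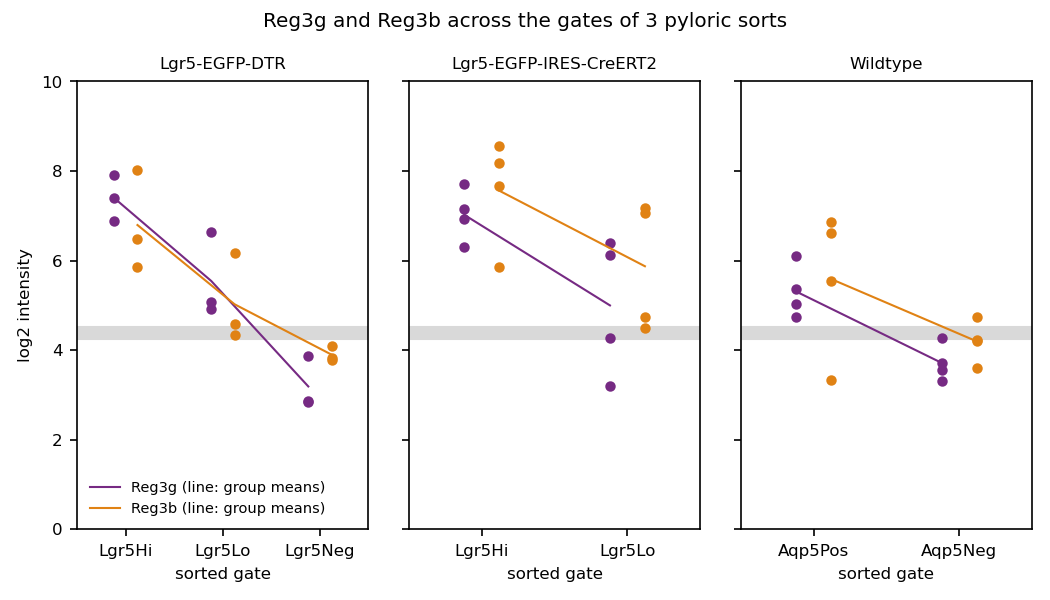
Log2 intensity (y axis) of Reg3g and Reg3b on each array of the sorted gates (x axis) in the DTR, IRES and WT pylorus. Points are arrays, lines join group means, and the grey band is the range of the array medians; the 3 DTR gates do not overlap for Reg3g, whose means are 7.40, 5.54 and 3.19.

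The WT pylorus, sorted without a reporter, gave the same direction for Reg3g. It measured 4.73, 5.04, 6.10 and 5.36 in Aqp5Pos cells and 4.28, 3.56, 3.30 and 3.71 in Aqp5Neg cells. Every Aqp5Pos array lay above every Aqp5Neg array. The difference was 1.60 ± 0.29 (3.03-fold; limma adjusted p = 0.0139), again from a level under the array medians. Reg3b measured 5.54, 6.61, 6.87 and 3.33 in Aqp5Pos cells and 4.73, 4.23, 3.61 and 4.21 in Aqp5Neg cells. The Aqp5Pos arrays numbered 1 to 3 lay above all Aqp5Neg arrays and the array numbered 4 lay below them. The Reg3b difference was 1.39 ± 0.60 (adjusted p = 0.229), and without Aqp5Pos replicate 4 it was 2.14 (adjusted p = 0.00869).

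Reg1 averaged 3.82 ± 0.93 (SD, n = 4) in Aqp5Pos and 4.59 ± 0.40 in Aqp5Neg cells, opposite in sign to Reg3g and not called. Reg3a and Reg4 stayed at or below 4.27 on all 8 WT arrays. In all, 1 of the 5 members was called, where 2.8% of all genes were. The Reg3g call was lost without Aqp5Neg replicate 2 (adjusted p = 0.0535), replicate 3 (0.0567) or replicate 4 (0.0573), with differences of 1.46 to 1.60, and in 1 fit over all 42 arrays (0.158).

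In the IRES pylorus Reg3g measured 6.30, 7.15, 6.93 and 7.70 in Lgr5Hi cells and 4.27, 6.13, 3.2 and 6.39 in Lgr5Lo cells. Within each replicate number the bright array was higher, and the 2 gates overlapped because dim array 4 (6.39) lay above bright array 1. The difference was 2.02 ± 0.78 (4.06-fold; limma adjusted p = 0.231) and was not called. The replicate numbers were taken to pair the samples here, which the labels do not state. With the replicate as a block the same difference had a standard error of 0.48 and was called (adjusted p = 0.0342). The blocks covered all IRES arrays of a tissue and number, among them the whole tissue arrays. Without the whole colon array numbered 1 the standard error was 0.59 (adjusted p = 0.0755). Without both gate arrays numbered 4, which carried Paneth markers, the difference was 2.26 ± 0.89 (adjusted p = 0.271).

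Reg3b measured 5.85, 7.67, 8.17 and 8.55 in IRES pyloric Lgr5Hi cells and 4.74, 4.50, 7.07 and 7.18 in Lgr5Lo cells, higher in the bright cells within each number. Its difference of 1.69 ± 1.02 was not called (adjusted p = 0.515, and 0.164 with the replicate block). Reg1 went the other way in its means: it measured 4.84, 6.74, 7.71 and 7.55 in Lgr5Hi cells and 4.92, 7.53, 7.70 and 9.61 in Lgr5Lo cells, with broad overlap. Reg4 measured 3.68 to 4.29 in Lgr5Hi cells and 4.75, 3.52, 8.18 and 5.03 in Lgr5Lo cells, so that 1 dim array stood far above the rest. On that array the goblet marker mean was 8.96 and the colonocyte mean 5.60. On the dim array with the highest Reg1 the Paneth mean was 7.38 and the enterocyte mean 7.94, each the highest of the 8 gate arrays. The part of these markers in the Reg1 and Reg4 values was not tested. The whole pylorus lay low, with Reg3g at 3.47 and 3.37, Reg3b at 5.31 and 3.65 and Reg1 at 4.06 and 5.33. Without the replicate block limma called 0 members between the gates, 1 had an unadjusted p under 0.05, and 1.49% of all genes were called. With the block Reg3g was called, as given above.

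The gate change of DTR was set against that of IRES in 1 fit over all arrays. Reg3g differed by -0.17 ± 1.02 and Reg3b by 0.08 ± 1.40 between the lines, 0 of the 5 members were called by limma, 0 had an unadjusted p under 0.05, and 0.0766% of genes were called. These standard errors are wide beside gate changes of 1.85 and 2.02 for Reg3g, so a difference of that size could go undetected.

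**Figure D4:**
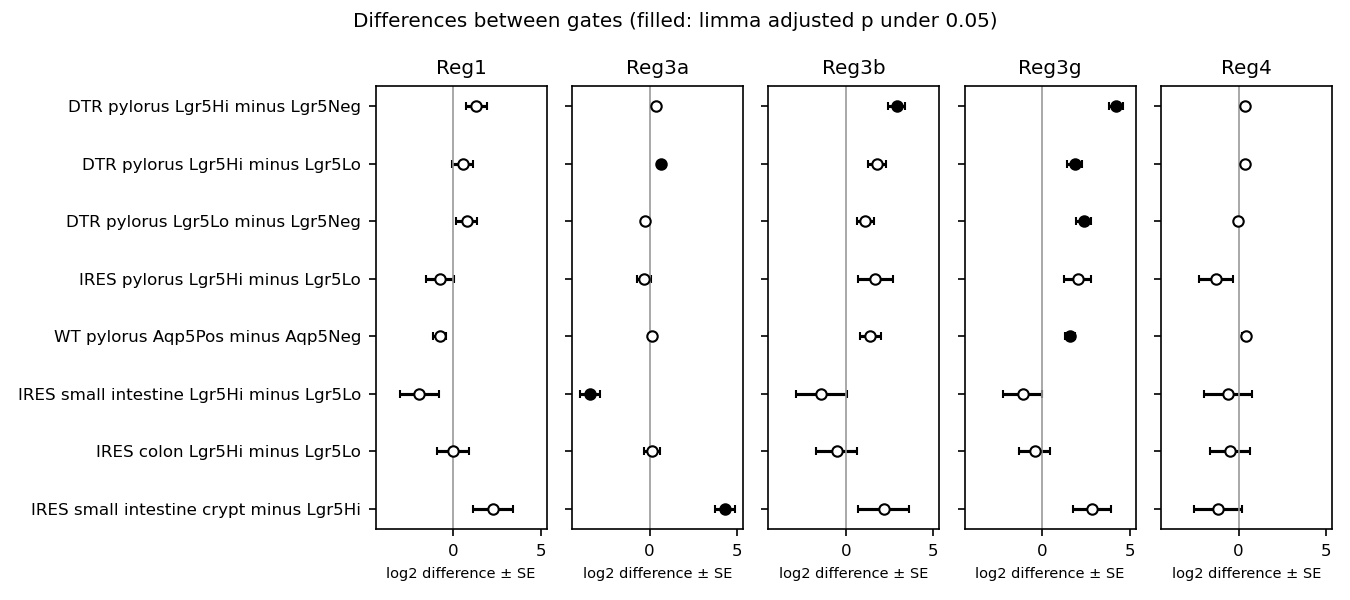
Log2 difference with its standard error (x axis) for each Reg transcript (panels) in 8 gate comparisons (y axis), first group minus second. Filled points passed limma's adjusted p of 0.05 in fits without the replicate block. Reg3g is above 0 in all 5 pyloric comparisons and was called in 4 of them.

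Cell type markers also moved with the pyloric gates, though not alike in every sort. Of all genes 18.3% were called between DTR Lgr5Hi and Lgr5Neg cells, 4.97% between Lgr5Hi and Lgr5Lo, and 2.2% between Lgr5Lo and Lgr5Neg cells. The share was 2.8% in the WT sort and 1.49% between the IRES pyloric gates. The surface pit mucous list fell in DTR Lgr5Hi against Lgr5Neg cells (4 of 4 lower), with array means of 8.02 to 8.99 against 12.28 to 12.31. The same list fell in WT Aqp5Pos cells, from 12.12 to 12.24 down to 10.33 to 11.22. Between IRES Lgr5Hi and Lgr5Lo cells no pit mucous marker was called (Muc5ac -1.42 ± 0.99, Gkn1 -0.50 ± 0.92, Gkn2 -0.52 ± 0.95, Tff1 -0.34 ± 0.97). All 4 had the sign seen in the DTR and WT sorts. Their IRES standard errors take in the whole colon array numbered 1, which carried gastric markers, so the missing calls do not show that the list stayed level. Of 3 gland mucous markers, 2 rose in DTR Lgr5Hi against Lgr5Neg cells, with array means of 11.95 to 12.15 against 9.62 to 10.22, and 2 rose in WT Aqp5Pos cells, with 11.73 to 11.85 against 10.61 to 10.91. In both comparisons these were A4gnt and Muc6, while Tff2 differed by 0.14 (adjusted p = 0.505) and 0.13 (0.666). Between DTR Lgr5Hi and Lgr5Lo cells A4gnt was the 1 gland mucous marker called (0.91). In the same comparison of the IRES line no gland mucous marker was called (A4gnt 2.14 ± 0.56, Muc6 1.00 ± 0.80, Tff2 0.11 ± 0.92). A4gnt was higher on every IRES Lgr5Hi array than on every Lgr5Lo array and narrowly missed the threshold (limma adjusted p = 0.062). These standard errors take in the same whole colon array. Tuft cell markers took opposite directions: 5 of 7 rose in DTR Lgr5Hi against Lgr5Neg cells (7.05 to 8.00 against 5.95 to 6.84), while in WT Aqp5Pos cells the list stood at 4.54 to 4.78 against 6.15 to 6.64. The 4 with the smallest p between the IRES pyloric gates were lower in Lgr5Hi cells. Of these Gnat3 was called (-2.93, limma adjusted p = 0.0157), and Sh2d6 (-1.42), Dclk1 (-1.54) and Alox5 (-1.55) were not. The gate change of DTR against IRES was called for Sh2d6 (3.61), Dclk1 (3.58), Alox5 (3.73) and Trpm5 (2.25). The mean of the Paneth markers ran from 3.73 to 4.84 over the 17 DTR and WT arrays, and the alpha defensin gene Defa22 averaged 2.41 in DTR Lgr5Hi cells. Of that list Pla2g2a (2.57) and Itln1 (2.29) rose and Lyz1 (-1.27) fell between DTR Lgr5Hi and Lgr5Neg cells. Of 5 chief and parietal cell markers, 3 rose in DTR Lgr5Hi against Lgr5Neg cells, with array means up to 9.81 against up to 7.30, and all 5 rose in Lgr5Lo against Lgr5Neg cells. Between Lgr5Hi and Lgr5Lo cells the chief cell genes Cblif (2.32) and Pga5 (1.56) rose, while Atp4a (-2.59) and Atp4b (-3.56), the parietal proton pump subunits, fell. In WT Aqp5Pos cells Cblif rose (1.38), Pga5 was not called (-0.65), and Atp4a (-3.30) and Atp4b (-2.76) fell. All 6 markers of dividing cells fell in DTR Lgr5Hi cells against each of the other gates, at 6.31 to 7.17 against 8.02 to 8.34 in Lgr5Lo and 8.21 to 8.62 in Lgr5Neg cells. Of these 6, 1 fell in WT Aqp5Pos cells and 2 fell in IRES Lgr5Hi cells. Of 11 pancreatic acinar markers, 4 rose in DTR Lgr5Hi against Lgr5Neg cells, among them Cela1 (2.16) and Clps (3.03), and 1 rose in WT Aqp5Pos cells (Cela1, 1.49). The part of these marker lists in the Reg3g differences was not tested.

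Genes around the Reg3 pathway were followed as lists. Of 15 measured genes of cytokine and microbe sensing, 3 rose and 2 fell in DTR Lgr5Hi against Lgr5Neg cells, where 18.3% of all genes were called, with a list median of -0.09 against 0.02 over all genes. Stat3, the transcription factor downstream of interleukin 22, rose by 0.98 ± 0.14 (adjusted p = 0.000394), and Il6st, the shared receptor chain of the interleukin 6 family, rose by 1.43 ± 0.17 (adjusted p = 6.46e-05). Il22ra1, the epithelial receptor chain for interleukin 22, fell by 1.49 ± 0.15 (adjusted p = 2.29e-05). The part of these genes in the Reg3g differences was not tested. Between Lgr5Hi and Lgr5Lo cells Stat3 (0.58) and Il6st (0.66) were again called higher and no gene of the list was called lower, where 4.97% of all genes were called. In the WT sort limma called 0 of the 15, with 5 at an unadjusted p under 0.05 and 2.8% of all genes called. In the IRES pylorus, where 1.49% of all genes were called, Il17rc, an interleukin 17 receptor chain, was called lower (-0.95).

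Of 16 measured genes responsive to interleukin 22 or Stat3, 2 rose and 2 fell between DTR Lgr5Hi and Lgr5Neg cells, where 18.3% of all genes were called, with a list median of -0.02. The secreted phospholipase gene Pla2g5 rose by 1.94 ± 0.22 and Bcl3, a nuclear factor of the NF-kB pathway, by 0.67 ± 0.18. The cytokine gene Il18 fell by 1.52 ± 0.24 and Socs3, the feedback inhibitor of Stat3 signalling, fell by 1.16 ± 0.19. Pla2g5 was called higher in the bright gate of the other pyloric sorts as well, by 1.62 in WT Aqp5Pos and by 1.52 in IRES Lgr5Hi cells, and Il18 was lower in WT Aqp5Pos cells (-2.29). Of all genes, 2.8% were called in the WT sort and 1.49% in the IRES pylorus.

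Of 19 measured secreted defence genes, 5 rose and 5 fell in DTR Lgr5Hi against Lgr5Neg cells, where 18.3% of all genes were called. Pigr, which carries antibodies across the epithelium, rose by 2.97 ± 0.13 and Bpifb1, a secreted lipid-binding defence protein, by 3.45 ± 0.26. Lypd8, which binds flagellated bacteria, fell by 3.42 ± 0.23, and the mucosal scavenger gene Dmbt1 fell by 2.92 ± 0.33. Pigr (2.00) and Lypd8 (-2.51) were the members of this list called in the WT sort, in the same directions, where 2.8% of all genes were called. In the IRES pylorus limma called 0 of the 19, with 4 at an unadjusted p under 0.05 and 1.49% of all genes called.

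The small intestine carried all 5 members well above the array medians, apart from 1 Reg3a value. Reg3a measured 3.81 and 7.07 in Lgr5Hi cells, 8.70 and 9.03 in Lgr5Lo cells, 7.59 in the whole tissue and 9.86 and 9.68 on the arrays labelled crypt. Both Lgr5Hi arrays lay below all others and differed widely from each other. Reg3a was lower in Lgr5Hi than in Lgr5Lo cells by -3.42 ± 0.57 (10.7-fold lower; limma adjusted p = 0.0147). This made 1 of 5 members called, where 0.185% of genes were. The 2 Lgr5Hi arrays also differed in the mean of the enterocyte markers, at 6.90 for the array with Reg3a at 3.81 and 9.61 for the array at 7.07, against 10.01 to 10.50 in Lgr5Lo cells, and the part of these markers in the Reg3a difference was not tested. Without Lgr5Hi replicate 1 the difference was -1.79 (adjusted p = 0.27), and without Lgr5Lo replicate 1 or 2 the adjusted p was 0.116 or 0.131.

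The remaining 4 members had lower means in Lgr5Hi than in Lgr5Lo cells of the small intestine, and none of the 4 differences was called. Reg1 measured 8.93 and 11.12 in Lgr5Hi and 11.98 and 11.94 in Lgr5Lo cells. Reg3b measured 9.34 and 11.25 against 11.58 and 11.83, and Reg3g 7.72 and 9.29 against 9.15 and 10.11. Reg4 measured 10.26 and 10.71 against 11.25 and 10.95. The direction of the means was thus opposite to that in the pylorus for Reg3b and Reg3g, yet the difference between organs in the gate change, 3.09 for Reg3b and 3.14 for Reg3g, was not called (adjusted p = 0.772 and 0.583). For Reg3a the gate change differed by 3.10 between pylorus and small intestine (adjusted p = 0.165) and by -3.58 between small intestine and colon (adjusted p = 0.252). Without small intestinal Lgr5Hi replicate 2 these were 4.73 and -5.21, in a fit that leaves 1 array in that group. Leaving out replicate 1 instead made the small intestinal gate change smaller, as given above. In 1 fit over all 42 arrays both Reg3a differences between organs were called (0.0066 and 0.00463).

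Over the 3 organ pairs limma called 0 members for a difference in the gate change. For pylorus against small intestine 0.0316% of genes were called and 2 members had an unadjusted p under 0.05. For pylorus against colon 0.225% were called with 0 members under 0.05 unadjusted, and for small intestine against colon 0.0135% with 1 member.

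On the arrays labelled crypt, Reg3a was higher than in Lgr5Hi cells by 4.32 ± 0.57 (limma adjusted p = 1.67e-05), 1 of 5 members called where 13.4% of genes were. Reg3g measured 11.06 and 11.63 there, above 7.72 and 9.29 in Lgr5Hi cells, a difference of 2.84 that missed the threshold (adjusted p = 0.101) and passed it without the whole colon array numbered 1 (0.0229). Reg3d averaged 4.26 on these arrays and 2.77 in Lgr5Hi cells (1.49 ± 0.41; adjusted p = 0.017), at levels near or below the array medians. Of the sensing genes 4 of 15 were called higher and 0 lower, among them Il22ra1 (2.37) and Stat3 (2.25). Il18 (2.96) and the kinase gene Pim1 (1.56) of the responsive list were also higher, while Pla2g5 was lower (-1.13). The enterocyte mean was 11.73 and 11.74 on the 2 arrays and 6.90 and 9.61 in Lgr5Hi cells, and the T cell gene Cd8a was higher by 2.62; their part in these differences was not tested.

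In the colon Reg4 stood well above the array medians in both sorted gates. It measured 10.92, 11.46 and 11.12 in Lgr5Hi and 11.62, 11.57 and 11.78 in Lgr5Lo cells, with every dim array above every bright one by a small margin (-0.49; adjusted p = 1). The error of that Reg4 test takes in the whole colon arrays, at 3.21 and 10.69. Within the gates the SD of Reg4 was 0.27 in Lgr5Hi and 0.11 in Lgr5Lo cells. Reg3b measured 7.84, 9.29 and 6.41 in Lgr5Hi and 7.10, 10.33 and 7.65 in Lgr5Lo cells. Reg3g measured 6.0, 7.16 and 5.10 against 5.70, 7.82 and 6.02. For both, replicate 2 was the highest array of each gate. Reg1 (2.60 to 5.64) and Reg3a (2.04 to 2.59) were near or below the array medians. With limma 0 members were called between the colonic gates, 0 had an unadjusted p under 0.05, and 0% of all genes were called, with 1000 genes at an unadjusted p under 0.05.

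The whole colon arrays gave 3.21 and 10.69 for Reg4, 3.48 and 9.86 for Reg3b and 2.79 and 7.51 for Reg3g. The low value in each pair is that of the array with gastric markers, so the mean of this group describes neither array.

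The organs were compared within a gate of the IRES line. Among Lgr5Hi cells, Reg4 was lower in the pylorus than in the small intestine by -6.41 (85.2-fold; limma adjusted p = 0.000693) and than in the colon by -7.09 (136-fold; adjusted p = 0.000104), from pyloric levels under the array medians. Reg3a was lower in the pylorus than in the small intestine by -3.10 (adjusted p = 0.000158). Reg1 took a middle place: it was lower in the pylorus than in the small intestine by -3.32 (adjusted p = 0.027) and higher than in the colon by 2.91 (adjusted p = 0.0406). Between small intestine and colon Reg1 differed by 6.23 (adjusted p = 0.000682) and Reg3a by 3.05 (adjusted p = 0.00101).

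Among Lgr5Hi cells Reg3g averaged 7.02 ± 0.58 in the pylorus (SD, n = 4), 8.50 ± 1.11 in the small intestine (n = 2) and 6.09 ± 1.03 in the colon (n = 3), and none of the 3 differences was called. The arrays of pylorus and colon overlapped. Reg3b averaged 7.56 ± 1.19, 10.30 ± 1.35 and 7.85 ± 1.44 in the same order and was not called either. In all, 3 of 5 members were called between pylorus and small intestine, where 12.4% of genes were, 2 between pylorus and colon, where 7.12% were, and 2 between small intestine and colon, where 2.6% were. The Reg1 call against the small intestine was lost without pyloric replicate 1 (adjusted p = 0.0798) or small intestinal replicate 2 (0.357). Its call against the colon was lost without pyloric replicate 2 (0.078), 3 (0.105) or 4 (0.104), without colonic replicate 1 (0.125) or 3 (0.192), and without both pyloric arrays numbered 4 (0.0676). Trend and robust moderation lost both Reg1 calls (0.0709 and 0.105).

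Among Lgr5Lo cells the pylorus was lower than the small intestine for all 5 members. The differences were -4.52 for Reg1 (limma adjusted p = 0.00404), -6.20 for Reg3a (2.14e-08), -5.83 for Reg3b (0.0037), -4.63 for Reg3g (0.00269) and -5.73 for Reg4 (0.0028), and no array of the 2 groups overlapped for any member. Of all genes 8.17% were called in this comparison. Against the colon 2 members were called, Reg1 higher by 3.66 (0.0101) and Reg4 lower by -6.29 (0.000444), where 6.34% of genes were. Between small intestine and colon 2 were called, Reg1 (8.17; 1.44e-05) and Reg3a (6.63; 2.59e-08), where 4.46% were. There Reg3b (3.34; 0.198) and Reg3g (3.11; 0.0894) were called as well without the whole colon array numbered 1 (0.0444 and 0.0142).

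Several of these calls leaned on single arrays. For pylorus against small intestine, leaving out small intestinal Lgr5Lo replicate 1 raised the adjusted p to 0.0624 for Reg1, 0.0502 for Reg3b and 0.0556 for Reg4, and leaving out replicate 2 raised it to 0.0609 for Reg3g. For pylorus against colon, the Reg1 call was lost without colonic Lgr5Lo replicate 1 (0.0829) or 3 (0.0697).

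Reg3b and Reg3g moved together over the arrays. Their Pearson correlation was 0.91 over the 42 arrays, 0.74 over the 27 pyloric arrays, 0.93 over the 7 small intestinal arrays and 1.00 over the 8 colonic arrays. The arrays share lines, gates and processing, and the values are a description only. Reg3g and Reg4 had a correlation of 0.02 in the pylorus. In the small intestine Reg3a correlated with Reg3b at 0.98 and with Reg1 at 0.96, and Reg4 had a correlation of -0.61 with Reg3g.

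**Figure D5:**
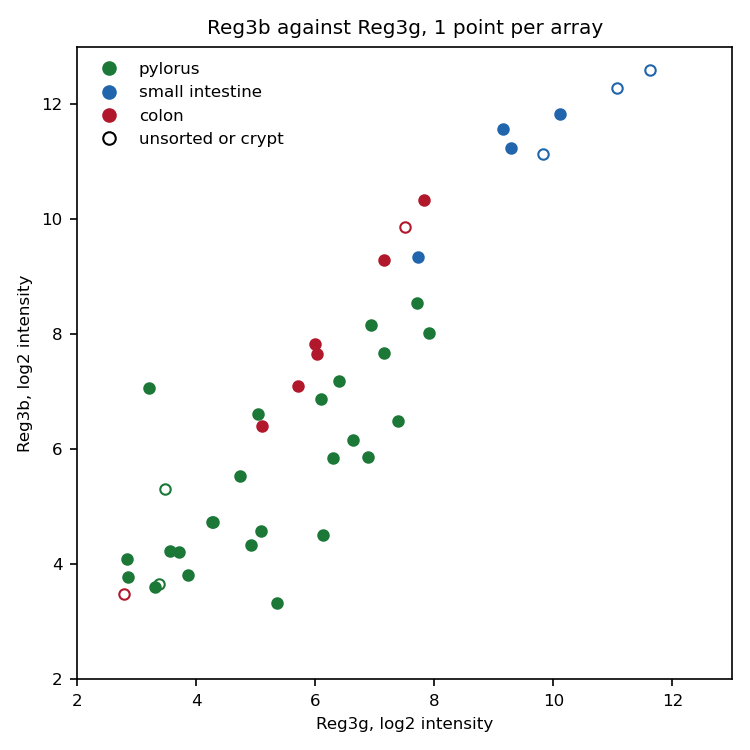
Log2 intensity of Reg3b (y axis) against Reg3g (x axis), 1 point per array, coloured by organ, with open points for unsorted or crypt arrays. The 42 points rise together (Pearson r = 0.91), and the open colonic point low on both axes is the whole colon array numbered 1.

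Genes most like each member were ranked by the Pearson correlation of the 15 group means, among 2754 genes with a highest group mean of at least 6 and a span of at least 2. Reg3b was closest to Psmb9 (0.975) and Psmb8 (0.971), which encode immunoproteasome subunits, followed by Dpyd (0.970), Reg3g (0.961) and Lrat (0.947). Reg3g was closest to Reg3b (0.961), Psmb8 (0.937), Nat8f1 (0.933), Dpyd (0.933) and Hsd17b13 (0.931). Reg3a was closest to Enpep and Sis (each 0.994), a brush border peptidase and disaccharidase, then Adh4 (0.992), Cyp3a25 (0.991) and Mttp (0.991). Reg1 was closest to Fabp1 (0.971), the fatty acid binding protein of absorptive cells, then Rragd (0.958) and Defa41, Aldh18a1 and Ugt2a3 (each 0.946). Reg4 was closest to Ang4 (0.994), a secreted antimicrobial ribonuclease, then Nr5a2 (0.991), Ccl6 (0.989), Clca3b (0.986) and Guca2a (0.985). The group means share models and arrays, and the whole colon mean joins arrays that differ widely, which can raise the values of colonic genes such as those near Reg4. These correlations order genes and test nothing.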

How the data were processed

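Affymetrix arrays of 42 samples were analysed in 15 groups by title. The authors deposited log2 intensities per probe set (41345 probe sets). Per the submitters' processing notes RMA, oligo, Partek, limma 3.26.8 and R 3.2.3 were used, without order or role. RMA background correction leaves a floor, so differences of weak genes are compressed, and probe sets of Reg paralogs may share signal. The labels describe single-cell digestion and sorting. Group means were compared in limma 3.58.1 under R 4.3.3, separately by mouse line, using moderated errors (eBayes). Benjamini-Hochberg adjustment ran over 22180 genes, each by its brightest probe set, and an adjusted p below 0.05 counts as a call. The gate change of DTR against IRES used all arrays. P-values rest on the variation among samples that the labels call biological replicates, and the number of arrays limits the precision. The script was tested on simulated data. Members and gene lists were chosen with earlier results of these data known.

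Named were the 5 members, Reg2, Reg3d, Extl3, Lgr5 and Aqp5, up to 4 genes of each list with the smallest p per comparison, and the 5 genes most like each member. A few marker genes were named after their values were seen (Mmp7, Sis, Alpi, Cd8a, Defa22). Same-numbered gate arrays of the IRES pylorus correlated in their deviations from the group means at 0.162, 0.104, 0.273 and 0.296, and those of the colon at 0.176, 0.136 and 0.242, all over 0.1, so the numbers were taken to pair these samples; those of the DTR and WT sorts did not all pass 0.1. Promoter letters and gene order are from RefSeq. Alternatives were the replicate block, 1 fit over all arrays, trend and robust moderation, only genes reaching 5 in a group, other normalizations, and leaving out each array.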

Additional observations from a re-analysis of the deposited data

Results flagged for a closer look

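Reg1 in WT Aqp5Neg cells of the pylorus had 1 array apart from the others: it measured 5.18, against 4.46, 4.35 and 4.36 on the other 3. The gap to the nearest array was 0.87 of the group's range. Of the 20 pairs of a member and a group of 4 arrays examined in this way, chance alone would flag about 1.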

How the results depend on the processing

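Of 90 member differences 24 were called, and 11 of these kept their call under every alternative run. Over 1341 member values under alternatives, 1288 kept direction and side of the threshold, 36 lost a call, 17 gained one and 0 reversed. With 1 fit over all 42 arrays the members called were 1 for DTR Lgr5Hi minus Lgr5Neg, 0 for DTR Lgr5Hi minus Lgr5Lo, 0 for DTR Lgr5Lo minus Lgr5Neg, 0 for WT, 2 for crypt minus Lgr5Hi, and 1 each for the gate change of pylorus minus small intestine and of small intestine minus colon; the cause was not tested. Trend and robust moderation gave 1 for DTR Lgr5Hi minus Lgr5Lo and 1 for Lgr5Hi pylorus minus colon, and the cause was not tested. The replicate block gave 1 for the IRES pylorus and 3 for crypt minus Lgr5Hi, where the small intestinal samples share only a number, and changed no other count. Without both IRES pyloric arrays numbered 4, an alternative chosen after seeing the data that leaves fewer samples, Lgr5Hi pylorus minus colon had 1.

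Leaving out 1 array, with fewer samples, gave ranges of 0 to 2 for DTR Lgr5Hi minus Lgr5Lo, 0 to 1 for DTR Lgr5Lo minus Lgr5Neg, 0 to 2 for WT, 0 to 1 for small intestine Lgr5Hi minus Lgr5Lo, 1 to 2 for crypt minus Lgr5Hi, 1 to 2 for Lgr5Hi pylorus minus colon, 2 to 5 for Lgr5Lo pylorus minus small intestine, 1 to 2 for Lgr5Lo pylorus minus colon, 2 to 4 for Lgr5Lo small intestine minus colon, and 0 to 1 for the gate changes of pylorus minus small intestine and of small intestine minus colon. Where 1 of 2 small intestinal arrays was left out, the lone sample was assumed to vary like the other groups. Signal near the array medians limits Reg3a and Reg4 in the pylorus and Reg1 and Reg3a in the colon.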
